A study of Mus musculus with 6 samples.

Results

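The downstream flank of the mouse α-globin cluster is a stretch of 47 kb, chr11:32203001-32250000 in mm9, that begins 2.13 kb past the end of *Hbq1a*, the last θ-globin gene. Its members are all pairs of NlaIII restriction fragments with at least 1 fragment midpoint in this stretch, found at the R2 enhancer viewpoint or at the *Mpg* promoter viewpoint. They make up 11625 of 151979 distinct fragment pairs on chromosome 11 (7.65%), with 460 to 760 pairs per sample for R2 and 1364 to 1866 for *Mpg*. Each value below is a sum of deposited contact counts over such pairs. The flank was chosen by position alone.

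Tri-C, a chromosome conformation method, reads the DNA pieces that were crosslinked together and then ligated in a nucleus. Besides the viewpoint, each read used here carries 2 or more other restriction fragments, the reporters, and a contact is a pair of reporters seen together with the viewpoint on 1 allele. The cells were Ter-119+ erythroid cells taken from the spleen. The donors were C57BL/6 females given phenylhydrazine, a compound that destroys red cells and so drives the production of their precursors in the spleen. Wild type (WT) mice were compared with D3839 mice, which lack the upstream CTCF-binding motifs HS-38 and HS-39, with 3 biological replicates of each genotype and both viewpoints read in every replicate. Both genotypes received the same treatment. By the study's methods, another library kit was used for D3839 than for WT, and in every comparison below the kit and the deletion cannot be told apart.

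CTCF is a DNA-binding protein that halts the extrusion of chromatin loops, and pairs of its sites in facing orientation often mark the edges of contact domains. In erythroid cells the α-globin genes and the enhancers upstream of them form such a domain, with CTCF sites at its upstream edge and beyond the θ-globin genes at its downstream edge. The question put to the data here was how far contacts of an enhancer and of an upstream promoter run past the θ-globin genes, with and without the upstream sites. The flank is set by position, and its start is not itself a mapped CTCF site.

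The flank holds 280 NlaIII fragments, of which 244 had at least 1 count, with a median length of 91 bp. Their density was 5.96 per kb, against 5.43 per kb in the upstream remainder of the region, so the flank is not poorer in fragments. The only annotated gene that overlaps the flank is *Sh3pxd2b*, which encodes an adaptor protein of podosomes and starts at position 32247820 on the plus strand, 2.18 kb before the flank end. The rest of the flank lies between genes. The nearest α-globin promoter, that of *Hba-a2* (*Hba-2*), is 6.51 kb before the flank. R2 lies 52.0 kb from the near edge and 99.0 kb from the far edge, and the *Mpg* viewpoint 76.1 kb and 123 kb. The CTCF-binding sites HS+44 and HS+48, named for their distance in kb from *Hba-x*, have nominal positions 17.4 kb and 21.4 kb into the flank. A further pair of CTCF sites on the study's map of the locus, read to the nearest kb, falls 36 to 42 kb into it.

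Possible CTCF-binding motifs of the flank are shown because its windows are named for CTCF sites, with the core letters in capitals. The core CCA, any 2 bases, AG, any 2 bases and GGC, searched on both strands, occurred in 1 place in the flank, between the CTCF pairs, whereas 7.49% of all 1 kb bins of chromosome 11 hold it. A looser core, with any base in place of the A after CC, of which every match of the stricter core is also a match, was added after the data were seen. It had 11 matches in the flank, 5 on the plus and 6 on the minus strand, in 19.1% of the flank's bins against 13.7% of all bins of chromosome 11. Of these, 6 are printed from the mm9 sequence in the direction of the core: the stricter match, the pair of minus-strand matches near HS+44, and 3 of the matches in the window of the far CTCF pair.
HS+44 window, chr11:32221327-32221358, minus strand: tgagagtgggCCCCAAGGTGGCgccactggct
HS+44 window, chr11:32221385-32221416, minus strand: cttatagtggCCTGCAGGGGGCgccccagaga
Between the CTCF pairs, chr11:32234275-32234306, minus strand: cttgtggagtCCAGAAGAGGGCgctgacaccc
Far CTCF pair, chr11:32241284-32241315, minus strand: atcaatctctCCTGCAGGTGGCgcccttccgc
Far CTCF pair, chr11:32242896-32242927, plus strand: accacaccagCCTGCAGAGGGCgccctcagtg
Far CTCF pair, chr11:32242932-32242963, plus strand: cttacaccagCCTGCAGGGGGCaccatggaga
The minus-strand matches near HS+44 share a single NlaIII fragment of 434 bp, chr11:32221271-32221704, which held 80 reporter ends for R2 and 199 for *Mpg* over the 6 samples. A match is a description of the letters and not a binding site.

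The data comprise 12 tables of unique contact counts. All 88602 fragments named in them matched a fragment cut in silico from mm9. Total counts on chromosome 11 ranged from 18823 to 26893 for R2 and from 31203 to 39540 for *Mpg*. Values were expressed first as a percentage of the matrix, meaning all contacts with both midpoints in chr11:32070001-32250000 outside the viewpoint, which held 8651 to 16115 counts for R2 and 10237 to 18951 for *Mpg*. Each contact gives 2 reporter ends. The matrix took a larger part of all chromosome 11 counts in D3839 than in WT, 64.7% ± 1.95 (SD, n = 3) against 47.1% ± 1.11 for R2 and 51.6% ± 2.24 against 37.0% ± 4.20 for *Mpg*. For this reason the flank's shares and several of the fits are also given on the scale of all chromosome 11 counts. That scale raised the median log2 difference of all 1 kb bins tested by 0.46 for R2 and by 0.48 for *Mpg*. Other matrix shares and log2 differences stand on the matrix scale alone.

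The flank held a smaller share of the contacts of the *Mpg* promoter in D3839 than in WT on both scales, and of those of R2 on the matrix scale alone. For *Mpg*, the flank held 16.3%, 18.0% and 15.0% of matrix reporter ends in WT (replicates 1, 2 and 3 in this order, here and below) and 9.23%, 8.21% and 9.15% in D3839. The means were 16.4% ± 1.53 and 8.87% ± 0.567 (SD, n = 3), a ratio of 0.540, and the genotypes did not overlap. As a share of all chromosome 11 ends the means were 7.62% ± 0.143 and 5.50% ± 0.340, a ratio of 0.722, again without overlap.

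For R2, the flank held 6.05%, 4.50% and 6.17% of matrix ends in WT and 3.40%, 3.95% and 4.02% in D3839. The means were 5.57% ± 0.930 and 3.79% ± 0.338 (SD, n = 3), a ratio of 0.680 without overlap. Of all chromosome 11 ends the flank held 3.35%, 2.66% and 3.64% in WT and 2.67%, 2.90% and 2.97% in D3839, and these overlapped. The exact permutation test, two-sided, gave 0.1 for the *Mpg* shares on both scales and for the R2 share of the matrix, the smallest p that 3 samples against 3 allow, and 0.4 for the R2 share of chromosome 11. The separation of the R2 samples depended on the denominator. The *Mpg* samples separated on both scales, with a smaller difference on the chromosome 11 scale.

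**Figure D1:**
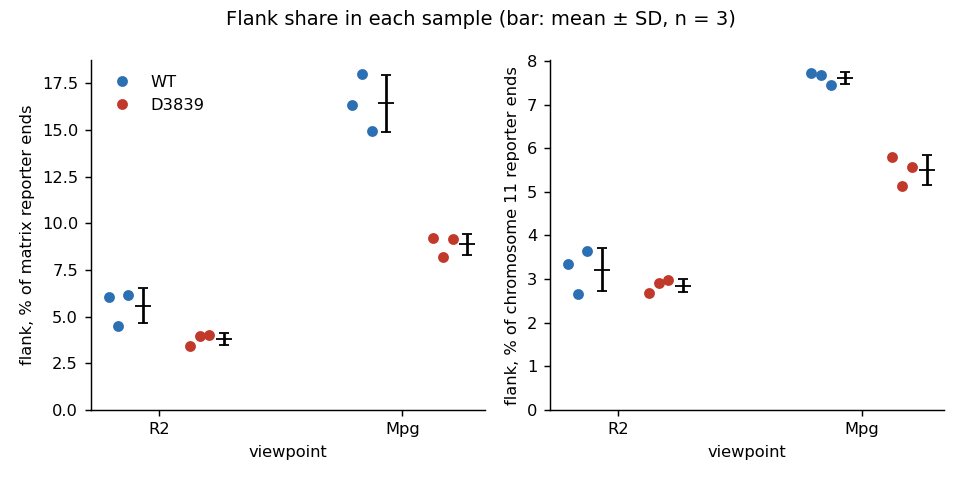
Share of reporter ends in the downstream flank per sample, for the R2 and *Mpg* viewpoints, as a percentage of matrix ends and of all chromosome 11 ends. Points are the 3 replicates of each genotype and bars the mean ± SD. The *Mpg* samples separate on both scales, whereas the R2 samples separate on the matrix scale and overlap on the chromosome 11 scale.

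The *Mpg* promoter, although it lies farther from the flank than R2, gave it the larger share in every sample. In WT the *Mpg* share of matrix ends was 2.70, 4.0 and 2.42 times the R2 share of the same replicate, and in D3839 it was 2.71, 2.08 and 2.28 times. The mean of this ratio over 3 samples was 3.04 ± 0.841 (SD) in WT, and 2.36 ± 0.324 in D3839. The genotypes overlapped, and the log2 ratio differed by 0.34 with an exact permutation p of 0.3, so the genotype difference of the flank as a whole was not shown to differ between the viewpoints. In the window that holds HS+44 and HS+48 the ratio was 2.97, 2.76 and 2.46 in WT and 2.15, 1.98 and 1.75 in D3839, without overlap (exact permutation p = 0.1). In each of the other windows of the flank the genotypes overlapped in this ratio, with exact permutation p of 0.2 or more.

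Reporter ends per kb were lower past the flank start than before it in every sample, by a factor that differed between values per kb and per fragment and between window sizes. Beside *Hbq1a* the R2 viewpoint gave 1.20% ± 0.226 of matrix ends per kb in WT (SD, n = 3), while the whole flank had a mean of 0.119% ± 0.0198 per kb. Ends per kb in the first 5 kb of the flank were 0.239, 0.226 and 0.196 of those in the 5 kb before it for R2 in WT and 0.170, 0.224 and 0.191 in D3839. For *Mpg* the ratio was 0.433, 0.434 and 0.269 in WT and 0.335, 0.379 and 0.301 in D3839. The genotypes overlapped at both viewpoints, with exact permutation p = 0.2 for R2 and 0.6 for *Mpg*. Divided by the number of restriction fragments instead of by length, the ratio had a mean of 0.395 for R2 and 0.679 for *Mpg* in WT, against 0.220 and 0.379 per kb, and of 0.349 and 0.606 in D3839, against 0.195 and 0.338. With 10 kb in place of 5 kb on each side, the *Mpg* ratio per kb was 0.645 in WT and 0.455 in D3839, and with 3 kb it was 0.181 in WT and 0.196 in D3839, where the direction turned (exact permutation p = 0.6). The size of the drop, at *Mpg* above all, moved with how it was measured.

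The flank start was not the place of the steepest drop in every sample. Among boundaries from 13 kb before to 42 kb after the flank start, the smallest ratio of 5 kb after to 5 kb before lay within 1 kb of the flank start in WT replicates 2 and 3 and D3839 replicate 3 for R2, and in WT replicate 3 and D3839 replicate 3 for *Mpg*. In the other samples it lay 22 to 40 kb into the flank, where the counts were lower than at the flank start. At 22 kb the *Mpg* windows still held 3287 ends before and 1536 after, summed over the 6 samples. The 1 kb bin at the flank start has 2 fragments, against 11 in the bin before it and 6 in the bin after it. It held 0.0774% ± 0.0425 of R2 ends in WT (SD, n = 3), against 0.746% ± 0.184 and 0.341% ± 0.123.

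**Figure D2:**
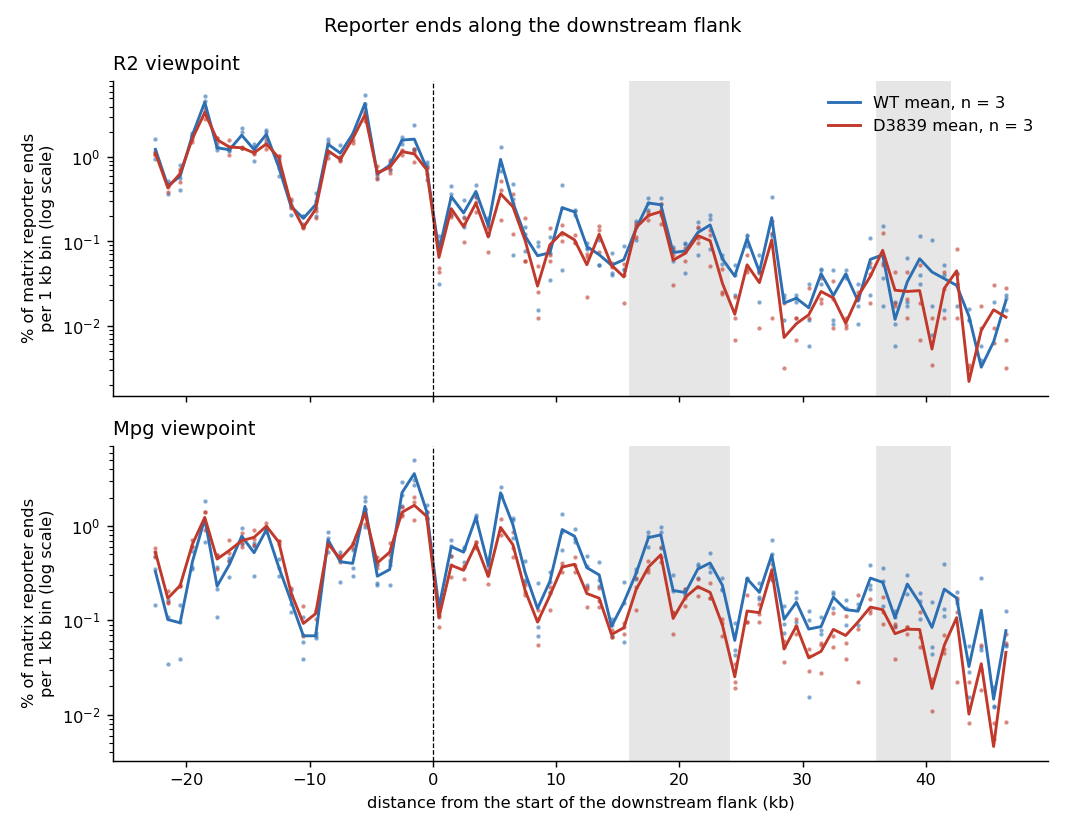
Reporter ends per 1 kb bin as a percentage of matrix ends (log axis) against distance from the flank start, for the R2 and *Mpg* viewpoints in WT and D3839. Dots are single samples, shaded bands mark the windows of both CTCF pairs, values of 0 are omitted from the log axis, and lines are group means. Ends per bin are lower past the flank start than just before it at both viewpoints, with local peaks 5 kb and 17 to 18 kb into the flank, and from the flank start onward the D3839 mean lies below the WT mean in all 47 *Mpg* bins.

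Mean reporter ends per kb were lower from each of the 5 windows of the flank to the next at both viewpoints and in both genotypes, except for R2 in D3839, where the far CTCF pair was above the stretch before it. For R2 in WT, the 16 kb before the HS+44 window held 0.214% ± 0.0477 of matrix ends per kb (SD, n = 3), the 8 kb that hold HS+44 and HS+48 held 0.150% ± 0.00324, and the 12 kb between the CTCF pairs held 0.0521% ± 0.0134. The far CTCF pair held 0.0428% ± 0.0205 per kb and the last 5 kb, which hold the start of *Sh3pxd2b*, 0.0145% ± 0.00257. From each window to the next these R2 WT samples did not overlap per kb, except between the stretch before the far pair and the far pair itself. Divided by fragments, the samples before HS+44 (0.0314%, 0.0230% and 0.0364% of matrix ends per fragment) overlapped those of the HS+44 and HS+48 window (0.0278%, 0.0267% and 0.0273%), and in D3839 the mean of the former was the lower, 0.0195% against 0.0218%.

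For *Mpg* in WT the same 5 windows held 0.594%, 0.409%, 0.180%, 0.176% and 0.0852% of matrix ends per kb. In D3839 they held 0.321%, 0.234%, 0.101%, 0.0727% and 0.0404%. Every D3839 sample was below every WT sample in each of the 5 windows, on the matrix scale and on the chromosome 11 scale. For comparison, 21.0% of all 1 kb *Mpg* bins of the matrix had all D3839 samples below all WT samples on the matrix scale. These bins are narrower than the windows and hold fewer counts, so the shares are not strictly alike. Within the flank the 16 kb before HS+44 held 57.9% of the flank's *Mpg* ends in WT and 57.9% in D3839. The share of the far CTCF pair was 6.41% in WT and 4.89% in D3839, without overlap.

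For R2 the window values in D3839 were 0.138%, 0.120%, 0.0294%, 0.0316% and 0.0168% of matrix ends per kb. The genotypes did not overlap before, at and past HS+44 and HS+48, and overlapped at the far pair and at *Sh3pxd2b*. On the chromosome 11 scale the samples overlapped in all 3 of these windows, with exact permutation p = 0.3 before HS+44 and 0.2 between the CTCF pairs. The window of HS+44 and HS+48 held 0.0883%, 0.0833% and 0.0890% of ends per kb in WT and 0.0888%, 0.0853% and 0.0940% in D3839, so its direction turned (exact permutation p = 0.5). There the start of *Sh3pxd2b* held 0.0114%, 0.00691% and 0.00967% per kb in WT and 0.0129%, 0.0181% and 0.0127% in D3839, higher in D3839 without overlap (exact permutation p = 0.1). These last levels rest on few counts. For comparison, 8.00% of all 1 kb R2 bins, narrower than the windows, had all D3839 samples below all WT samples on the matrix scale.

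Around the possible motifs, in the 3 kb centred on the bin of each match, all D3839 samples lay below all WT samples at 9 of 11 matches for *Mpg* and at 3 of 11 for R2, as shares of the matrix. Of the 1 kb bins, 25 of 47 for *Mpg* and 11 of 47 for R2 did so in the flank, and 21.0% and 8.00% in the whole matrix, so for R2 the share of matches was near that of flank bins at large. The windows of 3 kb are wider than these bins and some overlap one another, and nothing particular to the motifs was tested. The minus-strand matches near HS+44 share a single window, and both are among the 3 for R2. The printed plus-strand matches of the far pair also share a single window. Each of these windows was counted once per match. Around the minus-strand matches near HS+44, R2 ends were 0.211% ± 0.0147 per kb in WT and 0.163% ± 0.00980 in D3839 (SD, n = 3), and *Mpg* ends 0.590% ± 0.143 and 0.323% ± 0.0293, without overlap. These are shares of the matrix alone. On the chromosome 11 scale the R2 direction of the whole HS+44 and HS+48 window turned, with overlap. Around the pair of plus-strand matches of the far pair printed above, *Mpg* ends were 0.150%, 0.181% and 0.149% per kb in WT and 0.0580%, 0.0496% and 0.0721% in D3839, without overlap, while R2 ends were 0.0946%, 0.0250% and 0.0193% in WT and 0.0321%, 0.0103% and 0.0145% in D3839, with overlap. At a plus-strand match in the HS+44 and HS+48 window, starting at position 32222691, and a minus-strand match between the CTCF pairs, starting at 32230617, the samples overlapped at both viewpoints, although those of the whole windows did not.

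At the resolution of 1 kb, single bins of the flank fell and none rose. With edgeR's quasi-likelihood test over all bins of the matrix, 12 of 47 *Mpg* bins of the flank were lower in D3839 at an adjusted p below 0.05 and 0 were higher, against 9.66% lower and 10.2% higher among all 176 bins tested. For R2, 1 of 47 was lower and 0 were higher, against 0.571% lower and 1.71% higher among all 175. The log2 difference of the 47 *Mpg* bins had a median of -0.89 and was below 0 in all 47, while the median over all bins was -0.12. For R2 the median was -0.47 against 0.02 over all bins, and at an unadjusted p below 0.05 there were 4 of 47 bins, all lower. No count over all bins at that threshold is given here, so these 4 show nothing particular to the flank. With all chromosome 11 counts as the library size, 5 *Mpg* bins were lower, all among the 12, with 40 of 47 below 0, and the same R2 bin was lower. On that scale the median of the 47 R2 bins was -0.01 with 24 below 0, against 37 below 0 on the matrix scale. Without D3839 replicate 1, 2 *Mpg* bins were lower, and without WT replicate 3, 20 were.

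The 12 *Mpg* bins were spread along the flank, with 4 of them before the HS+44 window and 8 within or beyond it. The bin 5 kb into the flank, chr11:32208001-32209000, was the only one called at both viewpoints. It held 2.07%, 2.13% and 2.57% of *Mpg* ends in WT and 1.18%, 0.810% and 0.909% in D3839, a log2 difference of -1.22 (SE 0.168, adjusted p = 0.000192 by edgeR's quasi-likelihood test). For R2 it held 0.799%, 0.694% and 1.34% in WT and 0.404%, 0.181% and 0.521% in D3839, a log2 difference of -1.36 (SE 0.311, adjusted p = 0.0189 by edgeR's quasi-likelihood test). The *Mpg* call was kept without any one replicate, whereas the R2 call was lost without any one replicate except WT replicate 2.

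This bin has 23 fragments, the most of the 47 bins, and the level of a bin moved with its number of fragments: across the 47 bins Spearman's rho was 0.48 for R2 and 0.66 for *Mpg* in WT, a description across neighbouring bins of the same libraries. The fragment with most ends at both viewpoints lies in it, with 112 ends for R2 and 294 for *Mpg* over the 6 samples, and is shown because it is the most contacted piece of the flank.
Fragment of 237 bp, chr11:32208242-32208478, plus strand: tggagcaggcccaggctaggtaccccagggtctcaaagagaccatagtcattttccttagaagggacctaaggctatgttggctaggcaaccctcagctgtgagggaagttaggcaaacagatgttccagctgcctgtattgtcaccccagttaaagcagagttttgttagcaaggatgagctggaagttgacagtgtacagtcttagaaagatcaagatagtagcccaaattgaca
Even this fragment carried 1.58% of the flank's R2 ends, so no single fragment made up the flank's signal. Its R2 ends were 26, 10 and 24 in WT and 23, 3 and 26 in D3839. The next fragments by R2 ends were chr11:32208634-32208675 with 106 and chr11:32204091-32204380 with 103, and by *Mpg* ends the neighbours chr11:32209518-32209568 with 246 and chr11:32209569-32209696 with 243.

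Of the other *Mpg* bins with the smallest p, the bin 3 kb into the flank, chr11:32206001-32207000, held 1.32%, 1.26% and 1.13% of ends in WT and 0.670%, 0.592% and 0.671% in D3839. Its log2 difference was -0.94 (SE 0.190, adjusted p = 0.00397 by edgeR's quasi-likelihood test), and -0.45 with an adjusted p of 0.111 on the chromosome 11 scale. The bin 10 kb into the flank, chr11:32213001-32214000, held 0.859%, 1.34% and 0.555% in WT and 0.375%, 0.325% and 0.402% in D3839. Its log2 difference was -1.32 (SE 0.290, adjusted p = 0.00717 by edgeR's quasi-likelihood test), with an adjusted p of 0.0839 without D3839 replicate 1. Both bins lie between the θ-globin genes and HS+44, and the samples did not overlap in either. By non-overlap alone, 25 of 47 *Mpg* bins and 11 of 47 R2 bins of the flank had all D3839 samples below all WT samples, against 21.0% and 8.00% of all bins, and 0 had them above at either viewpoint, against 20.5% and 12.6%.

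**Figure D3:**
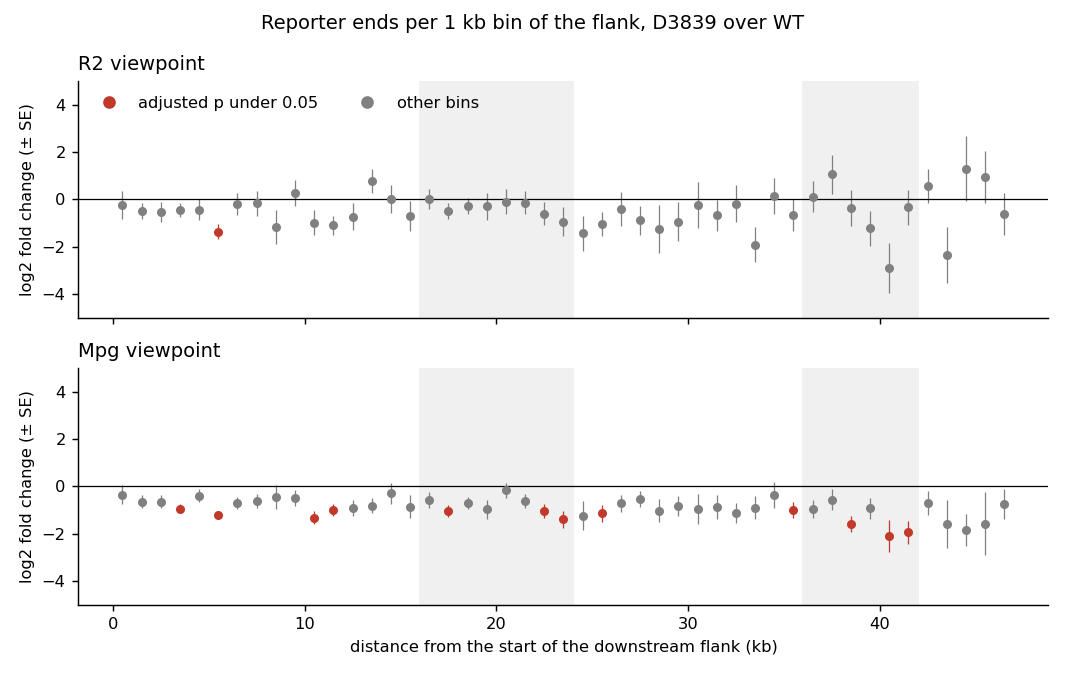
Log2 difference, D3839 over WT, of each 1 kb bin of the flank against distance from the flank start, from edgeR's quasi-likelihood fit of the whole matrix for R2 and *Mpg*. Bars are ± SE, shaded bands mark the windows of both CTCF pairs, and coloured points are bins with an adjusted p below 0.05, 1 for R2 and 12 for *Mpg*. All 47 *Mpg* bins lie below 0.

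A contact that touches the flank can have its other reporter in the flank, upstream in the matrix, or farther away. In WT 37.6% ± 6.49 of R2 contacts and 42.0% ± 5.27 of *Mpg* contacts that touched the flank stayed within it (SD, n = 3), and in D3839 36.0% ± 4.51 and 40.0% ± 6.35, with overlap at both viewpoints. Partners upstream in the matrix made up 28.8% ± 2.43 in WT and 37.1% ± 2.98 in D3839 for *Mpg*, without overlap. For R2 they made up 38.4% ± 2.96 and 45.9% ± 4.53, with overlap. Partners more than 1 Mb away made up 17.2% ± 3.63 of R2 contacts in WT and 10.3% ± 0.570 in D3839, and 19.9% ± 2.01 and 14.3% ± 1.95 for *Mpg*, without overlap at either viewpoint. The lower share of far partners was not particular to the flank. Among contacts of the matrix that did not touch the flank, a comparison added after the data were seen, it was 20.7% ± 2.66 in WT and 10.7% ± 1.58 in D3839 for R2 and 23.8% ± 3.66 and 16.8% ± 2.35 for *Mpg* (SD, n = 3), without overlap. The share in the flank divided by that outside it overlapped between genotypes, with means of 0.831 and 0.985 for R2 (exact permutation p = 0.4) and 0.842 and 0.851 for *Mpg* (exact permutation p = 0.9).

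**Figure D4:**
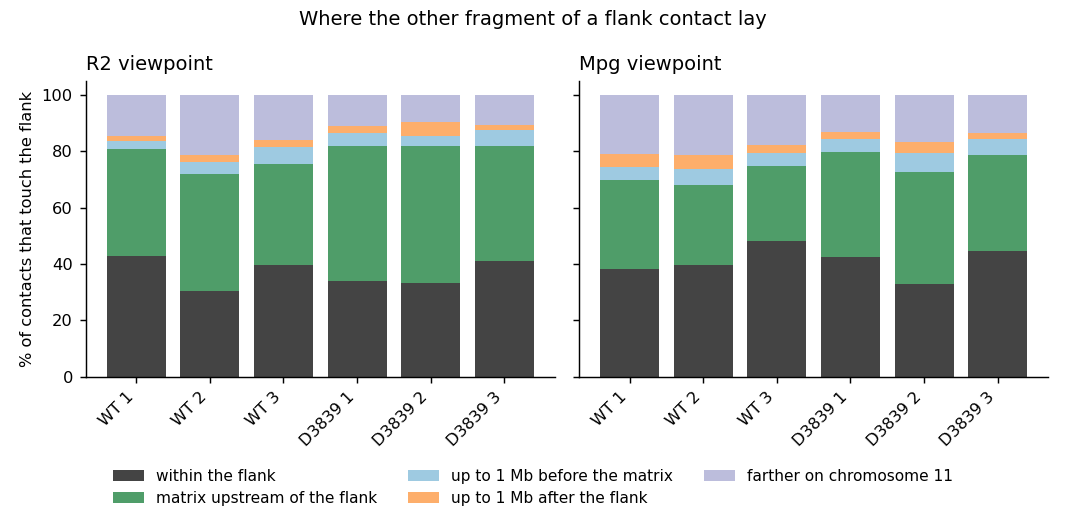
Composition of the contacts that touch the flank, by where the other reporter lies: in the flank, upstream in the matrix, within 1 Mb on either side, or more than 1 Mb away, as a percentage per sample for R2 and *Mpg*. The class over 1 Mb is smaller in all D3839 samples than in all WT samples at both viewpoints, and the class upstream in the matrix is larger at *Mpg*.

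Contacts with both reporters inside the flank were lower in D3839 at both viewpoints on the matrix scale. For *Mpg* they numbered 1444, 1360 and 1914 in WT and 1220, 931 and 1199 in D3839, or 12.2% ± 0.935 and 6.07% ± 0.822 of the matrix (SD, n = 3). The log2 difference was -1.01 (SE 0.140, adjusted p = 1.4e-05 by edgeR's quasi-likelihood test over all segment pairs of the matrix). On the chromosome 11 scale it was -0.52 with an adjusted p of 0.0237. For R2 they numbered 404, 233 and 557 in WT and 325, 334 and 436 in D3839, or 4.25%, 2.69% and 4.30% of the matrix against 2.02%, 2.28% and 2.71%.

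The R2 samples overlapped, since WT replicate 2 lay within the D3839 range. The log2 difference was -0.68 (SE 0.180, adjusted p = 0.0184 by edgeR's quasi-likelihood test), and the call was lost on the chromosome 11 scale, at -0.23 with an adjusted p of 0.381, and without WT replicate 3, D3839 replicate 1 or D3839 replicate 2, with adjusted p from 0.0526 to 0.186. Of the 14 segment pairs of the flank tested at each viewpoint, 1 for R2 and 3 for *Mpg* were lower and 0 were higher. The 14 include the sum of the flank's pairs with every upstream segment. Among the 3 for *Mpg*, this sum and the pairs with *Il9r* and upstream share counts. Among all 92 segment pairs 3.26% were lower and 8.70% higher for R2, and 5.43% lower and 20.7% higher for *Mpg*.

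Most contacts inside the flank were short. In WT 67.2% ± 6.76 for R2 and 71.7% ± 5.25 for *Mpg* fell in the same 1 kb bin, and 61.5% and 62.2% joined neighbouring fragments (SD, n = 3 for the former). With neighbouring fragments left out, the remaining contacts were 4.61% ± 0.436 of the *Mpg* matrix in WT and 2.16% ± 0.275 in D3839, without overlap, and 1.46% ± 0.419 and 0.915% ± 0.223 of the R2 matrix, with overlap. Contacts over 20 kb or more inside the flank were rare at R2, with 13, 1 and 9 counts in WT and 11, 0 and 7 in D3839, where 0 counts allow up to 3 counts by counting error alone. At *Mpg* they numbered 32, 38 and 29 in WT and 14, 29 and 27 in D3839, and the genotypes met at 29. As shares of the matrix these contacts were 0.257%, 0.371% and 0.178% in WT and 0.0739%, 0.160% and 0.150% in D3839, without overlap (exact permutation p = 0.1). Contacts over 5 to 9 kb at *Mpg* numbered 63, 59 and 65 in WT and 50, 36 and 42 in D3839, without overlap even before scaling. Those over 10 to 19 kb numbered 98, 57 and 40 in WT and 35, 46 and 18 in D3839, and overlapped as counts and as shares of the matrix (exact permutation p = 0.2 for each). Those over 1 to 4 kb overlapped as counts, with 259, 273 and 292 in WT and 281, 199 and 252 in D3839, and did not as shares of the matrix.

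Among 5 kb bin pairs, those of *Mpg* with the smallest p-values joined reporters inside single 5 kb bins of the flank. For *Mpg*, 9 of 182 pairs with a bin in the flank were lower in D3839 at an adjusted p below 0.05 and 0 were higher, against 2.69% lower and 2.90% higher among all 483 pairs tested. Of the 9, 7 had both reporters in the same 5 kb bin. For R2, 0 of 96 passed in either direction by edgeR's quasi-likelihood test, where 0.00% of all 357 pairs were lower and 0.280% higher, and 0 passed by DESeq2. At an unadjusted p below 0.05 there were 10 of 96 R2 pairs, 7 lower and 3 higher. No count over all pairs at that threshold is given here, so these 10 show nothing particular to the flank.

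The *Mpg* pair with the smallest p joined reporters within chr11:32213001-32218000, 10 to 15 kb into the flank. It held 1.49%, 1.74% and 1.56% of the matrix in WT and 0.665%, 0.639% and 0.759% in D3839, a log2 difference of -1.21 (SE 0.235, adjusted p = 0.000959 by edgeR's quasi-likelihood test). The neighbouring bin chr11:32208001-32213000 held 2.36%, 2.82% and 3.00% in WT and 1.46%, 1.04% and 1.52% in D3839 (log2 difference -1.03, SE 0.204, adjusted p = 0.000982 by the same test). The bin at the flank start, chr11:32203001-32208000, held 1.67%, 1.76% and 1.77% in WT and 0.913%, 0.766% and 1.01% in D3839 (log2 difference -0.95, SE 0.225, adjusted p = 0.00677 by the same test). In these bins all WT samples lay above all D3839 samples. With all chromosome 11 counts as the library size, 1 of the 182 pairs was lower, and these named pairs had adjusted p of 0.0676, 0.136 and 0.274. Leaving out WT replicate 1 or any D3839 replicate brought the number of lower pairs to between 3 and 5.

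Contacts that joined the flank to the matrix upstream of it gave smaller log2 differences than those inside it. For *Mpg* they made up 9.43%, 9.43% and 6.41% of the matrix in WT and 5.58%, 6.17% and 5.02% in D3839, a log2 difference of -0.59 (SE 0.162, adjusted p = 0.016 by edgeR's quasi-likelihood test). The call was lost without WT replicate 1 (adjusted p = 0.0768) or D3839 replicate 3 (adjusted p = 0.064). As a share of chromosome 11 counts they made up 3.07% ± 0.422 in WT and 2.88% ± 0.251 in D3839 (SD, n = 3), with overlap, and the log2 difference was -0.09 with an adjusted p of 0.618. For R2 they made up 3.60%, 3.62% and 3.74% of the matrix in WT and 2.76%, 3.33% and 2.62% in D3839, without overlap, while the log2 difference of -0.33 (SE 0.145) did not pass, with an adjusted p of 0.14 by edgeR's quasi-likelihood test. On the chromosome 11 scale the R2 direction turned, at 1.72% in WT and 1.88% in D3839. Whether the change inside the flank was larger than the change toward upstream was not tested directly.

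The share of a window's contacts that had their other reporter more than 10 kb upstream gives the reach back from each point. For the first 5 kb of the flank at R2 it was 37.4%, 36.6% and 33.5% in WT and 42.9%, 40.5% and 45.7% in D3839, without overlap (exact permutation p = 0.1). For the same 5 kb at *Mpg* it was 32.8%, 30.9% and 29.9% in WT and 44.01%, 52.7% and 30.4% in D3839, with overlap. The R2 samples overlapped in every later window of the flank. In the next 5 kb the R2 means were 34.0% in WT and 33.6% in D3839. At *Mpg* only the 5 kb starting 20 kb into the flank separated, with means of 43.6% and 55.3%. Before the flank the *Mpg* samples separated too, except in the last 5 kb. Means were 33.5% and 44.4% for 5 kb starting 15 kb before it, and 23.5% and 33.4% starting 10 kb before it. The R2 samples overlapped there. Each share is of the window's own contacts in the matrix, so the matrix total does not enter it. Partners outside the matrix are left out.

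Split by element, 1 partner of the flank passed the test at *Mpg* and 0 passed at R2. The partners farthest upstream are the genes beyond the deleted CTCF sites. For *Mpg*, contacts of the flank with *Il9r* (a cytokine receptor gene) and the stretch upstream of it numbered 144, 127 and 101 in WT and 95, 112 and 74 in D3839, or 1.16%, 1.24% and 0.620% of the matrix against 0.501%, 0.617% and 0.410%. The log2 difference was -0.97 (SE 0.315, adjusted p = 0.0376 by edgeR's quasi-likelihood test), the only one of 12 single partners to pass at either viewpoint. It was -0.47 with an adjusted p of 0.207 on the chromosome 11 scale, and with single samples left out the call held only without WT replicate 3. For R2 the same contacts numbered 21, 28 and 12 in WT and 33, 40 and 36 in D3839, a log2 difference of 0.18 (SE 0.416, adjusted p = 0.813 by the same test).

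For the flank with *Snrnp25*, which encodes a protein of the minor spliceosome, and *Rhbdf1*, which encodes an inactive rhomboid protein, the *Mpg* viewpoint gave 1.76%, 2.42% and 1.22% of the matrix in WT and 1.18%, 1.29% and 0.881% in D3839 (log2 difference -0.68, SE 0.270, adjusted p = 0.0598 by edgeR's quasi-likelihood test). For R2 they numbered 11, 26 and 39 in WT and 52, 41 and 45 in D3839, a log2 difference of 0.29 (SE 0.381, adjusted p = 0.646 by the same test). As shares of the matrix the R2 samples overlapped for both of these partners. With the surroundings of *Mpg* itself, a DNA glycosylase gene, the *Mpg* viewpoint gave 2.86%, 2.46% and 1.63% in WT and 1.55%, 1.56% and 1.40% in D3839 (log2 difference -0.62, SE 0.238, adjusted p = 0.0552 by the same test). At R2 the flank met the *Mpg* segment in 39, 15 and 46 counts in WT and 23, 24 and 18 in D3839, or 0.410%, 0.173% and 0.355% of the matrix against 0.143%, 0.164% and 0.112%. That log2 difference was -1.17 (SE 0.392, adjusted p = 0.0508 by the same test), which did not pass. The shares did not overlap on the matrix scale but did on the chromosome 11 scale.

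With the segment from HS-38/-39 to R1, which begins with the deleted CTCF motifs, the flank gave 0.231%, 0.243% and 0.332% of the R2 matrix in WT and 0.248%, 0.178% and 0.137% in D3839 (log2 difference -0.53, SE 0.370, adjusted p = 0.399 by edgeR's quasi-likelihood test). At *Mpg* it gave 0.859%, 0.860% and 0.663% in WT and 0.591%, 0.650% and 0.543% in D3839 (log2 difference -0.41, SE 0.290, adjusted p = 0.287 by the same test), and 0.08 on the chromosome 11 scale. Neither comparison passed the test.

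With the enhancers the directions were mixed and no comparison passed. The R1 and HS-29 segment gave log2 differences of -0.25 at R2 and 0.43 at *Mpg*, and the R3 to R4 segment -0.67 (SE 0.315, adjusted p = 0.182 by edgeR's quasi-likelihood test) and -0.22. The R2 segment, of which 1 kb lies outside the R2 viewpoint and all 4 kb count at *Mpg*, met the flank in 7, 5 and 16 R2 counts in WT and 17, 24 and 23 in D3839, and in 5, 9 and 11 *Mpg* counts against 34, 15 and 12. Its log2 differences were 0.64 (SE 0.458, adjusted p = 0.402) and 0.76 (SE 0.562, adjusted p = 0.304) by the same test, the highest of all partners at both viewpoints. As a share of the matrix the samples overlapped at both viewpoints, while as a share of chromosome 11 counts all D3839 samples were higher, with means of 0.0403% and 0.0886% at R2 and of 0.0238% and 0.0572% at *Mpg* (exact permutation p = 0.1 for each).

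With the globin genes themselves no difference passed either. For *Hba-1* the log2 difference was -0.64 at R2 (SE 0.387, adjusted p = 0.334 by edgeR's quasi-likelihood test) and 0.06 at *Mpg*, where it turned to -0.35 under TMM normalization. For *Hba-2* it was -0.56 (SE 0.379, adjusted p = 0.39 by the same test) and -0.59 (SE 0.398, adjusted p = 0.28). *Hba-1* and *Hba-2*, the adult α-globin genes, are near-identical copies, so contacts of the flank with one or the other cannot be assigned with certainty, and the same holds for the θ-globin genes *Hbq1b* and *Hbq1a*. For *Hbq1a*, the neighbour of the flank, the log2 difference was -0.28 at R2 and -0.62 at *Mpg* (SE 0.292, adjusted p = 0.112 by the same test). The embryonic ζ-globin gene *Hba-x* gave -0.30 and -0.47. For the *Hbq1b* interval the log2 difference was -0.14 at R2 and -0.77 at *Mpg* (SE 0.364, adjusted p = 0.112 by the same test).

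**Figure D5:**
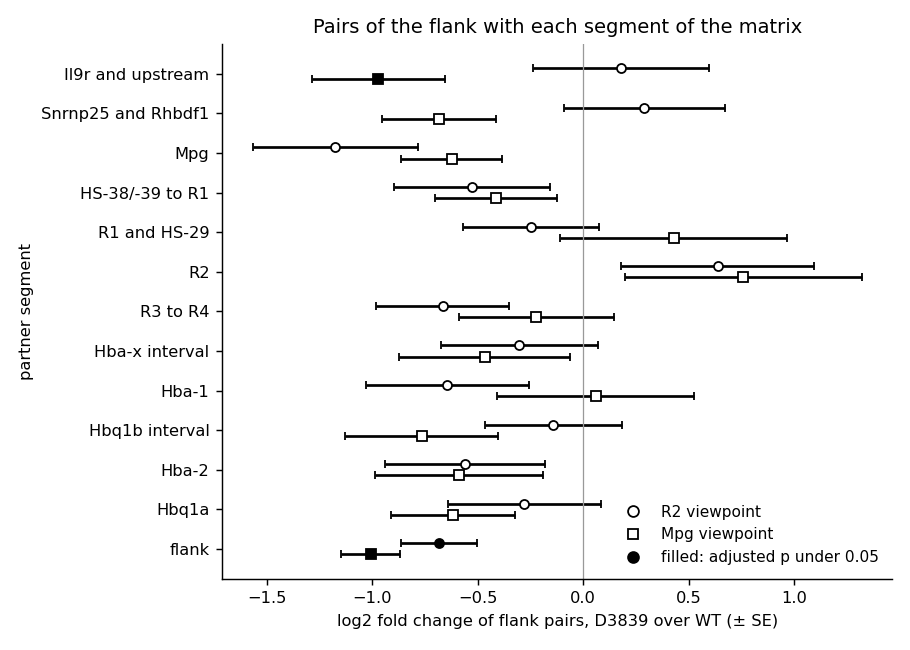
Log2 difference, D3839 over WT, of contacts between the flank and each of the 13 partner segments (the flank itself included), for R2 and *Mpg*, from edgeR's quasi-likelihood fit with bars of ± SE. Filled points passed at an adjusted p below 0.05: the flank with itself at both viewpoints and *Il9r* and upstream at *Mpg*.

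Because contacts fall with distance, the flank was also set against the interval of equal length and equal distance on the other side of each viewpoint. For R2 this is chr11:32053001-32100000, upstream of the deleted CTCF sites, and the flank held 2.80, 2.51 and 2.88 times its ends in WT and 2.01, 2.12 and 1.85 times in D3839, a log2 difference of -0.46 without overlap (exact permutation p = 0.1). That interval itself held 1.17% ± 0.104 of chromosome 11 ends in WT and 1.44% ± 0.149 in D3839 (SD, n = 3), higher in D3839 without overlap, beside flank means of 3.22% and 2.85%. For *Mpg* the interval is chr11:32003001-32050000, and the flank held 8.55, 7.03 and 7.92 times its ends in WT and 12.1, 7.61 and 12.5 times in D3839, with overlap (exact permutation p = 0.3). There the ends of the interval were 0.978% ± 0.0995 of chromosome 11 in WT and 0.533% ± 0.124 in D3839, lower in D3839 without overlap, as in the flank.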

How the data were processed

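Tri-C data of 3 WT and 3 D3839 samples at 2 viewpoints were used. The authors deposited unnormalized counts of unique contacts per pair of NlaIII fragments on mm9 chromosome 11. Per the labels, Trim Galore and Bowtie were used. By the study's methods the CCseqBasic pipeline removed spurious ligations, PCR duplicates and fragments of other captures, and reads with at least 2 reporters were kept.

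Each fragment was placed by its midpoint in a matrix of 1 kb bins, and the viewpoint bin was left out with 1 bin on each side. Segment pairs, 1 kb bins and 5 kb bin pairs were kept where the 6 samples summed to 10 counts or more. They were fitted with edgeR 4.0.16 (R 4.3.3), each viewpoint apart, by its quasi-likelihood test with the matrix total as library size and no block, with Benjamini-Hochberg adjustment over each whole table and a threshold of 0.05. Single values were compared over samples by the exact permutation test, two-sided, in Python 3.11.15 with numpy 2.4.6, pandas 2.3.3 and scipy 1.17.1. The floor of 3 counts covers counting error only: 1 read can give several contacts.

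Named were the flank, its 5 windows, all partner segments, and per viewpoint up to 3 bins and 3 bin pairs past the threshold in each direction with the smallest p, and the 3 fragments with most ends. Members and lists were chosen with earlier results of these data known. Positions of elements come from the study's locus map to the nearest kb. Alternatives were the chromosome 11 total, TMM, DESeq2 1.42.0, the count filter, bin size, viewpoint exclusion, same-bin or neighbouring pairs left out, division by fragments, single counting of pairs, the replicate number as a block and each sample left out. The statistics were tested on simulated data.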

Additional observations from a re-analysis of the deposited data

How the results depend on the processing

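Over 60 results and 787 alternatives, 685 kept direction and side of the threshold, 27 lost and 37 gained a call, 19 values moved and 19 turned direction. The chromosome 11 total as library size changed most. Under it R2 pairs within the flank gave -0.23 (adjusted p = 0.381), R2 pairs to upstream 0.13, *Mpg* pairs to upstream -0.094 (adjusted p = 0.618), lower *Mpg* bins numbered 5 and lower *Mpg* bin pairs 1. It also turned the R2 share of the HS+44 and HS+48 window to 0.0198 and the log2 differences of R2 partners R1 and HS-29 (0.21), *Hba-x* (0.15), *Hbq1b* (0.31) and *Hbq1a* (0.17) and of *Mpg* partners HS-38/-39 to R1 (0.076) and R3 to R4 (0.26).

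Leaving out same-bin or neighbouring pairs brought R2 pairs to upstream to -0.45 (adjusted p = 0.0307) and -0.44 (adjusted p = 0.0233), both past the threshold, and leaving out same-bin pairs brought the lower *Mpg* bin pairs to 4. Lower R2 bins numbered 2 by DESeq2 and 2 with 2 kb bins. The *Mpg* step at the flank start turned to 0.13 with 3 kb windows. The R2 share at *Sh3pxd2b* turned to -0.0142 with each pair counted once. The *Mpg* contact of the flank with *Hba-1*, 0.06 with the matrix total as library size, was -0.35 under TMM, -0.30 by DESeq2, -0.16 and -0.12 without same-bin and neighbouring pairs, -0.31 with pairs counted once, and -0.24 and -0.02 without WT replicate 2 and D3839 replicate 3.

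With each sample left out in turn, R2 pairs within the flank ranged from -0.87 to -0.57, and the call was lost without WT replicate 3, D3839 replicate 1 or D3839 replicate 2. *Mpg* pairs to upstream ranged from -0.75 to -0.50 and lost the call without WT replicate 1 (adjusted p = 0.0768) or D3839 replicate 3 (adjusted p = 0.064). Lower R2 bins ranged from 0 to 2, with 0 without any sample but WT replicate 2, and lower R2 bin pairs from 0 to 2, with 1 without WT replicate 2 and 2 without D3839 replicate 3. Lower *Mpg* bins ranged from 2 to 20, with 20 without WT replicate 3 and 2 without D3839 replicate 1. Lower *Mpg* bin pairs ranged from 3 to 13, with 3 without D3839 replicate 2, 4 without D3839 replicate 1, and 5 without WT replicate 1 or D3839 replicate 3. R2 contacts of the flank with *Il9r* ranged from -0.22 without WT replicate 3 to 0.62, those with *Snrnp25* and *Rhbdf1* from -0.031 without WT replicate 1 to 0.51, and *Mpg* contacts with *Hba-1* from -0.24 to 0.38. The cause was not tested for any of these.

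Same-numbered samples gave weak correlations, from -0.06 to 0.09 for R2 and from -0.10 to 0.21 for *Mpg*. Other pairs gave -0.12 to 0.09 and -0.18 to 0.13. The numbers were therefore not used to pair the samples, though so few correlations cannot show that no pairing exists. With the replicate block R2 pairs within the flank gave -0.66 (adjusted p = 0.0619) and lost the call, *Mpg* pairs to upstream gave -0.58 (adjusted p = 0.0234), and lower *Mpg* bins and bin pairs numbered 10 and 8.

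Contact depth limits the single partners at R2, which hold 5 to 101 counts per sample, and the bins past 24 kb, some of which are at 0. TMM lowered the median of all *Mpg* segment pairs by -0.44 and DESeq2 by -0.41.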
